A study of Rattus norvegicus with 15 samples.

Results

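Prostaglandin synthesis and breakdown was described here through 9 enzyme genes of the rat prostate: Pla2g4a, Ptgs1, Ptgs2, Ptges, Ptges2, Ptges3, Ptgds, Hpgd and Ptgr1. They were chosen by name, and all 9 were found among the 22436 genes of the deposited expression table. The series addressed low-intensity pulsed ultrasound (LIPUS), a physical treatment with short bursts of sound, in a rat model of chronic prostatitis with pelvic pain. RNA-seq of prostate tissue gave 15 libraries from SD rats. The LIPUS group had 5 libraries of treated model rats. For these the title field gives an intensity of 1.0 W/cm2 and the treatment field 1.5 W/cm2, with 4 weeks of treatment in the title. The Model group had 5 libraries of untreated model rats, and the Control group 5 libraries of rats without the model. Replicates are numbered 6 to 10 in each group. The labels used here state neither how the model was made, nor the age of the rats, nor whether each library is 1 animal, so the p-values below reflect the variation among the libraries, which may be technical.

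Prostaglandins are lipid mediators made on demand from arachidonate. Cytosolic phospholipase A2 (Pla2g4a) frees arachidonate from membranes, the cyclooxygenases Ptgs1 and Ptgs2 turn it into prostaglandin H2, and terminal synthases (Ptges, Ptges2, Ptges3, Ptgds) finish the individual prostaglandins, with prostaglandin E2 known as a mediator of pain and inflammation. Hpgd and then the reductase Ptgr1 inactivate them. Ptgs1 is known as the constitutive and Ptgs2 as the inducible cyclooxygenase.

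Libraries differed strongly in make-up. The 13 mitochondrially encoded genes took 43.0 to 83.3% of reads in LIPUS libraries, 23.5 to 43.5% in Model libraries and 3.75 to 4.69% in Control libraries, at 29675962 to 36402094 reads per library. Levels are therefore given as scaled FPKM, which is the deposited FPKM (fragments counted per kilobase of a gene and per library size) divided by a median-of-ratios factor. Values as deposited stand beside them where the direction or the call of an enzyme differs. The log2 ratio of secretory transcripts of the ventral lobe (Scgb1d2, Scgb1d4, Scgb2a1) to those of the dorsolateral lobe (Pbsn, Msmb) was -0.71 to 4.46 in LIPUS libraries, -9.25 to -2.77 in 4 Model libraries and 7.76 in Model_7, and 1.22 to 5.88 in Control libraries. The group comparison and the lobe sampled thus cannot be fully told apart. Of 10551 genes with at least 100 reads in every Control library, 573 had no read in LIPUS_10, 367 had none in LIPUS_6, and 56 to 233 had none in each other LIPUS or Model library. All 9 prostate luminal marker genes examined were detected well enough to be tested.

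The promoter sequences of the genes at the entry to the pathway are shown, a choice made after the values were seen. Ptgs2 and Pla2g4a are neighbours on chromosome 13, and Ptgs1 lies on chromosome 3. Any tie between the position of these genes and their levels was not tested. Each sequence is the 250 bases before the gene's start, read 5′ to 3′ on the gene's strand, from RefSeq on the build GRCr8. Promoters of 7 of the 9 genes were found in the sequence table used. Capitals mark letters that match one of 7 motifs on either strand. These were the TATA box TATAAA, a variant of it with the letters TTTAAA, the E-box CACGTG, the cyclic AMP response half-site TGACG, the GC box GGGCGG, the CCAAT box and a C/EBP-like motif written TTNNGNAA.
Ptgs2, chr13:64713813-64714062, plus strand: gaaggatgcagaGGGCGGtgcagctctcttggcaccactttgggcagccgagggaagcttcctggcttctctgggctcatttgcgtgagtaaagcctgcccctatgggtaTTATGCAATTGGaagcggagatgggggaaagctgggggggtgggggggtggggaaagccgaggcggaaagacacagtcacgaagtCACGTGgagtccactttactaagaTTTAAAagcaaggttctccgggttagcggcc
Pla2g4a, chr13:64572353-64572602, minus strand: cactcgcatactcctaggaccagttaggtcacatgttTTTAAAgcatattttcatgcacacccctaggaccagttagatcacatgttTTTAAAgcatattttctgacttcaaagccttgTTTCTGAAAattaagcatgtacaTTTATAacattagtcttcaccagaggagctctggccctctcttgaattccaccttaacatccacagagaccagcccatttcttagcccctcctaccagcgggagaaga
Ptgs1, chr3:39981169-39981418, plus strand: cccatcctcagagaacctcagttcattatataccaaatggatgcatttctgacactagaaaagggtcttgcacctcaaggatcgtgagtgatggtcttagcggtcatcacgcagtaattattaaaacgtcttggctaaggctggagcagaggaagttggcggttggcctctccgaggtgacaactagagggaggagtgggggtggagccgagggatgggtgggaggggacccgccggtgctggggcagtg
The starts of Ptgs2 and Pla2g4a are 141711 bases apart, and the genes point away from each other on opposite strands. The Ptgs2 promoter holds TTTAAA 31 bases before the start, a spacing usual for a TATA box, and CACGTG 55 bases before it. TTTAAA is found in 12.26% and CACGTG in 5.593% of 33469 rat promoter windows. Further upstream stands a C/EBP-like match, TTATGCAA, 140 bases before the start, a motif that 37.19% of windows hold. It overlaps a reversed CCAAT box at 133 (in 34.02% of windows), and a GC box stands at 238 (in 30.47% of windows). The Pla2g4a promoter, with 42.4% G and C against 57.2% in Ptgs2, holds the variant TATA box at 213 and at 163 bases before the start. A reversed TATA box, found in 12.93% of windows, stands at 108. It also holds 2 overlapping C/EBP-like matches at 131 and 130. In the Ptgs1 promoter no motif searched was found. A match is a description of letters, not of a bound factor.

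Ptgs2, the inducible cyclooxygenase, was detected in every Control library and in almost none of the model rats' libraries, treated or not. LIPUS libraries held 0, 0, 0, 16 and 0 reads of Ptgs2 for replicates 6 to 10, Model libraries held 1, 0, 0, 0 and 0, and Control libraries held 19, 44, 74, 25 and 14. Every Model library lay below every Control library, and so did 4 of 5 LIPUS libraries. In scaled FPKM this was 0.403 in LIPUS_9 and 0 in the other LIPUS libraries, at most 0.0159 in Model libraries, and 0.146 to 0.614 in Control libraries. A count of 0 allows up to 3 reads, and a lower level was not detectable at this depth. In FPKM as deposited this limit for Ptgs2 is 0.0489 to 0.0557 in LIPUS and 0.0465 to 0.0509 in Model libraries. Control libraries held 0.250 to 1.13 FPKM on that scale. On the scaled values the limit of LIPUS_10, whose factor was 0.309, lies above the lowest Control library. The 0 of LIPUS_10 therefore does not place it below Control on that scale.

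Over all genes tested, which leave out Ptgs2, 17.7% were lower in every Model library than in every Control library. The number of genes with any read was 13035 to 15766 in LIPUS, 14195 to 16284 in Model and 17997 to 18868 in Control libraries. How many genes as low as Ptgs2 went without reads in the model rats' libraries was not counted. Summed over the group and scaled, the Ptgs2 read rate in Model libraries was 0.995% of that in Control libraries (exact 95% interval 0.0251 to 5.62%, counting error only). In LIPUS libraries it was 24.6% of Control (13.7 to 41.0%), all of it from LIPUS_9. Set against Model, the LIPUS rate was 24.7 times higher with an interval of 3.84 to 1036, again from 1 library, and the counting interval leaves out the spread between libraries. Ptgs2 did not pass the filter on low values. In the limma fit of all 22436 genes without a filter, its log2 change was -1.89 ± 0.43 (SE) in Model against Control (Benjamini-Hochberg adjusted p = 0.00576) and -1.46 ± 0.43 in LIPUS against Control (adjusted p = 0.0311). Against Model, LIPUS gave 0.42 ± 0.43 (adjusted p = 0.62). In that fit 21.3% of all genes were called in Model against Control, 16.1% in LIPUS against Control and 1.21% in LIPUS against Model. Changes are on the scale log2(scaled FPKM + 0.1), which understates those of low genes. The call for LIPUS against Control was lost without LIPUS_6, LIPUS_7, LIPUS_8, LIPUS_10, Control_7 or Control_8, each time with an adjusted p between 0.0656 and 0.0778, and the log2 change ranged over -1.93 to -1.23 when 1 library was left out. It was also lost in 6 of 11 other alternatives: quantile normalization, a pseudocount of 1, only both groups in the fit, the replicate block, array weights, and without Model_7 and LIPUS_10 (adjusted p 0.0541 to 0.0844).

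The share of Ptgs2 among reads of both cyclooxygenases does not depend on library scaling. It was 3.40% in LIPUS libraries (16 of 471 reads, exact 95% interval 1.95 to 5.46%), 0.115% in Model libraries (1 of 870, 0.00291 to 0.639%) and 14.1% in Control libraries (176 of 1246, 12.2 to 16.2%). By library it was 9.58% in LIPUS_9 and 0 in the other LIPUS libraries, 0.441% in Model_6 and 0 in the other Model libraries, and 8.09 to 20.3% in Control libraries. LIPUS_9 was thus the single library of the treated group whose share fell within the Control range. The reads were few in LIPUS_7 and LIPUS_8, where with 50 and 58 reads of Ptgs1 the exact 95% interval of the Ptgs2 share reaches up to 7.11% and 6.16%.

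**Figure D1:**
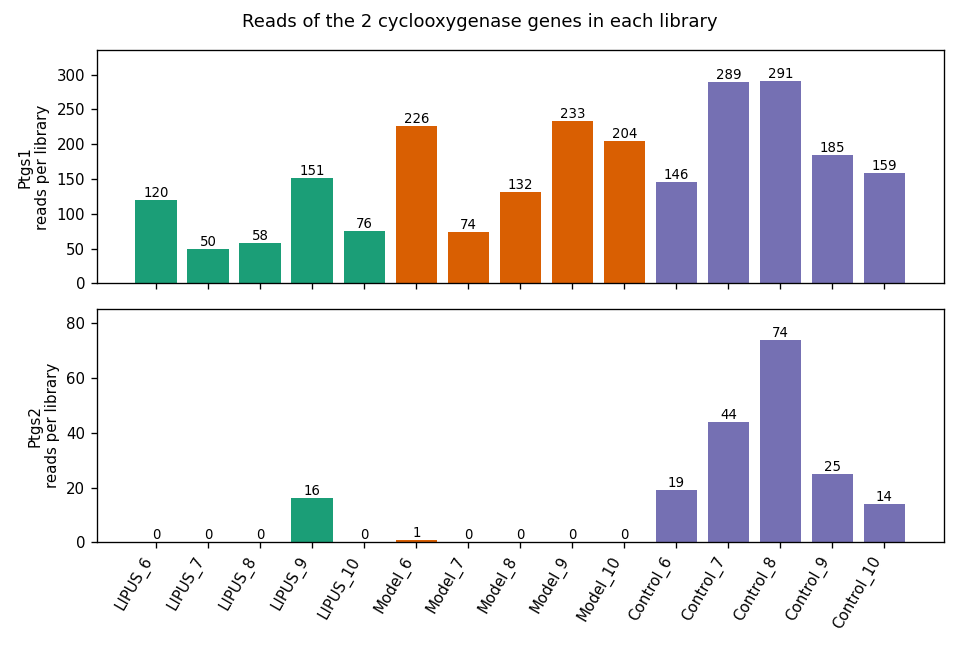
Reads of Ptgs1 (upper panel) and Ptgs2 (lower panel) in each of the 15 libraries, as bars with the number of reads above them; LIPUS, Model and Control libraries from left to right. Ptgs1 had 50 to 151 reads in LIPUS, 74 to 233 in Model and 146 to 291 in Control libraries, whereas Ptgs2 had reads in 1 LIPUS, 1 Model and all 5 Control libraries.

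Stromal and vascular markers differed between the same groups. The summed scaled FPKM of 6 fibroblast markers was 69.5 to 459 in LIPUS, 51.5 to 151 in Model and 413 to 706 in Control libraries, and 4 of these 6 genes (among them Col1a1 and Pdgfra) were lower in Model than in Control and 4 were lower in LIPUS than in Control, where 19.8% and 13.7% of all genes tested were called lower. For 5 endothelial markers the sum was 1.37 to 2.71 in LIPUS, 0.521 to 4.81 in Model and 7.48 to 13.02 in Control libraries, with 3 of 4 tested genes lower in Model than in Control and 4 of 4 lower in LIPUS than in Control, beside the same 19.8% and 13.7%. The part of these cells in the Ptgs2 values was not tested, and in tissue RNA fewer cells of a type and less RNA per cell cannot be told apart.

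Ptgs1, the constitutive cyclooxygenase, was detected in every library and did not pass the test in any comparison. Ptgs1 had a scaled FPKM of 0.476 to 2.61 in LIPUS libraries, 0.703 to 2.69 in Model libraries and 0.907 to 1.71 in Control libraries, so that the groups overlapped. For Ptgs1 the log2 change was -0.18 ± 0.44 (SE) in LIPUS against Model, 0.43 ± 0.44 in Model against Control and 0.25 ± 0.44 in LIPUS against Control (adjusted p = 0.815, 0.475 and 0.719). The sign depended on scaling. As deposited the change was -0.31 in Model against Control and -1.10 in LIPUS against Control, and the second was called (adjusted p = 0.0154), while the median of all genes tested moved by -0.90 and -1.48 in those comparisons as deposited, against -0.12 and -0.13 when scaled. In LIPUS against Model these medians were -0.60 as deposited and -0.02 scaled.

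Of the 8 enzymes that passed the filter, 2 were called in Model against Control, Ptges3 as higher and Pla2g4a as lower. Over all 12023 genes tested 35.7% were called in that comparison, 15.9% as higher and 19.8% as lower, so 2 of 8 is no more than the share of all genes. In LIPUS against Control 2 of 8 were called, Ptges3 and Ptgr1, both as higher, where 25.8% of genes were called, 12.1% as higher. In LIPUS against Model none of the 8 was called by limma, where 4.29% of genes were, and 1 (Ptgr1) had an unadjusted p under 0.05. Limma-voom on the recovered reads also called none there. The median log2 change of the 8 enzymes was -0.22 in LIPUS against Model, 0.53 in Model against Control and -0.51 in LIPUS against Control, beside -0.02, -0.12 and -0.13 over all genes tested. Comparisons share libraries (Model in the first 2, Control in the last 2), so they are not independent of each other.

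**Figure D2:**
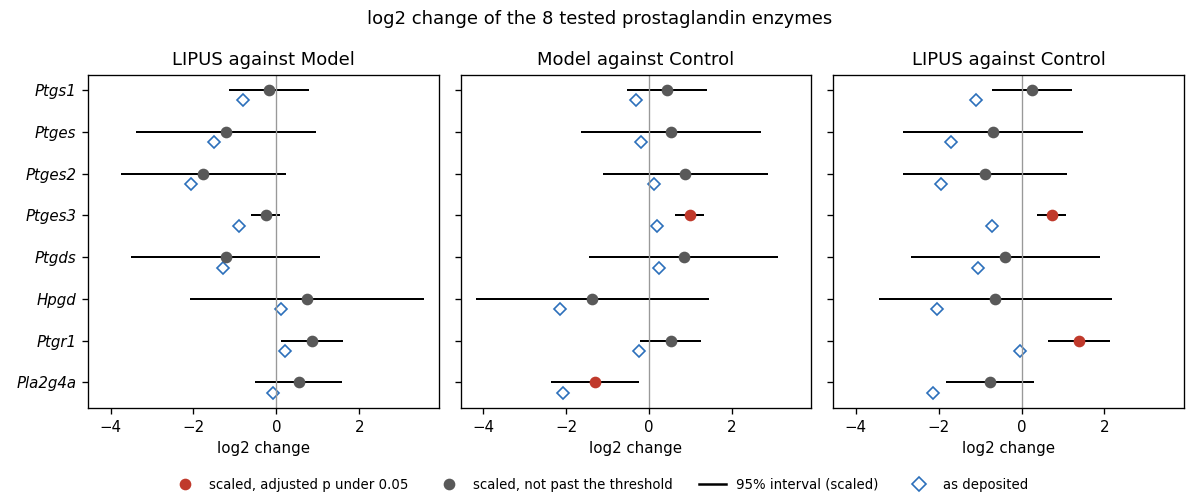
log2 change of the 8 tested enzymes in 3 comparisons, as points with 95% intervals for scaled FPKM (red where the Benjamini-Hochberg adjusted limma p is under 0.05) and as open diamonds for values as deposited. Ptges3 and Ptgr1 lie above 0 in LIPUS against Control when scaled (0.73 and 1.38) and below 0 as deposited (-0.71 and -0.04), whereas Pla2g4a lies below 0 in Model against Control on both scales (-1.30 and -2.07).

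Pla2g4a, which starts the pathway, was lower in Model than in Control libraries. Its scaled FPKM was 0.855, 2.01, 1.85, 1.29 and 6.69 in LIPUS libraries (replicates 6 to 10), 1.71, 0.533, 0.963, 1.56 and 2.73 in Model libraries and 2.32, 4.72, 4.61, 2.59 and 3.42 in Control libraries. In all, 4 Model libraries and 4 LIPUS libraries lay below every Control library, Model_10 lay within the Control range and LIPUS_10, the library with the largest mitochondrial share, above it. As deposited the groups did not overlap with Control: 0.548 to 2.26 FPKM in LIPUS and 0.619 to 2.88 FPKM in Model libraries, against 3.88 to 8.46 FPKM in Control libraries. On that scale 59.3% of all genes tested lay lower in every LIPUS library than in every Control library, and 40.9% in every Model library.

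The log2 change of Pla2g4a in Model against Control was -1.30 ± 0.48 (SE; 0.406-fold, 95% interval -2.33 to -0.27, limma adjusted p = 0.0478), and as deposited -2.07 (adjusted p = 0.0013). The scaled call stood close to the threshold. It held without LIPUS_6, LIPUS_10 or Model_10 and was lost when any 1 of the other 12 libraries was left out, with adjusted p between 0.0142 and 0.104 and log2 changes of -1.55 to -1.01 over all 15 omissions. It was also lost with a pseudocount of 0.01 (adjusted p = 0.0524), without a filter (0.0785) and after quantile normalization (0.0995). In LIPUS against Control the change was -0.76 ± 0.48 (adjusted p = 0.271). It was called as deposited (-2.14, adjusted p = 0.000576), with the lobe ratio as a covariate (-1.11, adjusted p = 0.0356) and without LIPUS_10 (-1.19, adjusted p = 0.042). In LIPUS against Model it was 0.54 ± 0.48 (adjusted p = 0.491), and -0.07 as deposited.

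Among the terminal synthases Ptges, Ptges2, Ptges3 and Ptgds, Ptges3, also known as the HSP90 co-chaperone p23, was the most abundant per length in every library. Scaled FPKM of Ptges3 was 125, 123, 110, 91.0 and 158 in LIPUS libraries, 119, 173, 135, 160 and 132 in Model libraries and 77.8, 68.6, 71.4, 68.3 and 75.0 in Control libraries. Every LIPUS and every Model library lay above every Control library on this scale, which was true in that direction of 11.7% of genes tested for LIPUS and 14.7% for Model. Means were 121 ± 24.7 in LIPUS, 144 ± 21.7 in Model and 72.2 ± 4.11 in Control libraries (SD, n = 5 each). Ptges3 changed by 0.98 ± 0.16 (SE, log2) in Model against Control (limma adjusted p = 0.000226) and 0.73 ± 0.16 in LIPUS against Control (adjusted p = 0.00333), both kept whichever library was left out.

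These calls for Ptges3 rest on the scaling. As deposited Ptges3 had 81.2 ± 34.2 FPKM in LIPUS, 146 ± 33.2 in Model and 125 ± 7.45 in Control libraries (SD, n = 5 each), the groups overlapped, and the log2 change was 0.20 in Model against Control (adjusted p = 0.554) and -0.71 in LIPUS against Control (adjusted p = 0.0252). With quantile normalization the changes were 0.39 (adjusted p = 0.0633) and 0.24 (adjusted p = 0.273), and with scaling to nuclear reads that in LIPUS against Control was 0.65 (adjusted p = 0.0581). Between LIPUS and Model the change was -0.26 ± 0.16 (adjusted p = 0.306), and -0.91 as deposited (adjusted p = 0.037). A copy annotated as prostaglandin E synthase 3-like 1 (Ptges3l1) had 0 to 78 reads per library beside 2746 to 10815 of Ptges3, and how reads that match both were counted is not given in the sources used here.

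Ptges, the inducible microsomal prostaglandin E synthase known as a partner of Ptgs2, varied widely within groups. Its scaled FPKM was 0, 0.55, 4.17, 3.25 and 0.0763 in LIPUS libraries, 5.96, 0.295, 0.478, 3.38 and 2.22 in Model libraries and 0.925, 2.15, 1.09, 0.944 and 0.511 in Control libraries. High and low libraries stood side by side in LIPUS and Model, on both sides of the Control range. The log2 change was -1.22 ± 1.01 (SE) in LIPUS against Model, 0.53 ± 1.01 in Model against Control and -0.68 ± 1.01 in LIPUS against Control (adjusted p = 0.452, 0.715 and 0.658), and in Model against Control it was -0.19 as deposited. The inducible pair thus differed in where it was detected: Ptges had reads in 4 LIPUS and 5 Model libraries, and Ptgs2 in 1 of each. For Ptges in LIPUS_10 and for Ptgs2 in Model_6 this was only 1 read. Control libraries held 34 to 164 reads of Ptges and 14 to 74 of Ptgs2, and the part of that difference in level was not tested.

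Ptges2, the membrane-associated prostaglandin E synthase, had its highest levels in Model libraries. Ptges2 had a scaled FPKM of 0.839, 3.33, 4.54, 5.57 and 0 in LIPUS libraries, 6.62, 0.893, 5.65, 8.66 and 11.3 in Model libraries and 2.73, 2.89, 2.19, 3.51 and 2.50 in Control libraries. Of the Model libraries 4 lay above every Control library and Model_7, which had the secretory make-up of the ventral lobe, below them. For Ptges2 the log2 change was -1.77 ± 0.92 (SE) in LIPUS against Model, 0.88 ± 0.92 in Model against Control and -0.88 ± 0.92 in LIPUS against Control, none of them called (adjusted p = 0.238, 0.487 and 0.519). As deposited every LIPUS library (0 to 3.74 FPKM) lay below every Control library (4.01 to 5.95 FPKM), the case for 59.3% of all genes tested, and the change of Ptges2 in that comparison was -1.94 (adjusted p = 0.0457). Without Model_7 and LIPUS_10, a choice made after the values were seen, the change was -1.38 in LIPUS against Model (adjusted p = 0.0258) and 1.48 in Model against Control (adjusted p = 0.00842), and in LIPUS against Control 0.10 (adjusted p = 0.872). Array weights also called Model against Control (1.44, adjusted p = 0.00642).

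Ptgds, the lipocalin-type prostaglandin D synthase, was near the detection limit. LIPUS libraries held 0, 24, 0, 22 and 0 reads, Model libraries held 76, 0, 50, 0 and 36, and Control libraries held 9, 19, 6, 21 and 7. Control libraries held few reads throughout, whereas those of LIPUS and Model held either none or more than any Control library. In LIPUS and Model a count of 0 allows 0.111 to 0.133 FPKM as deposited, where Control libraries held 0.218 to 0.760 FPKM. On the scaled values the limits of LIPUS_6, LIPUS_8, LIPUS_10 and Model_9 lie within the Control range of 0.119 to 0.449. Their counts of 0 therefore do not show a level below Control on that scale. The log2 change was -1.22 ± 1.06 (SE) in LIPUS against Model, 0.84 ± 1.06 in Model against Control and -0.39 ± 1.06 in LIPUS against Control (adjusted p = 0.475, 0.574 and 0.822).

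On the breakdown side, Hpgd, which oxidises prostaglandins to inactive keto forms, was among the genes that varied most between libraries of a group. Hpgd had a scaled FPKM of 4.53, 35.6, 264, 17.0 and 5.80 in LIPUS libraries, 76.9, 0.346, 28.3, 21.9 and 15.8 in Model libraries and 69.7, 16.3, 36.5, 123 and 7.44 in Control libraries. The highest library exceeded the lowest by 58.3 times in LIPUS, 222 times in Model and 16.6 times in Control, so the groups overlapped over most of their range. Its SD on the log2 scale was larger than that of 98.4% of tested genes in LIPUS, 99.0% in Model and 99.2% in Control, whereas that of Ptges3 exceeded only 13.1%, 7.86% and 8.36%. The log2 change of Hpgd was 0.74 ± 1.31 (SE) in LIPUS against Model, -1.37 ± 1.31 in Model against Control and -0.63 ± 1.31 in LIPUS against Control (adjusted p = 0.742, 0.446 and 0.762). The 95% interval of the first was -2.05 to 3.53, and its sign turned without LIPUS_8 (-0.17) or Model_7 (-0.47).

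Ptgr1, which reduces the keto forms made by Hpgd and also leukotriene B4, was highest in LIPUS libraries on the scaled values. Its scaled FPKM was 17.9, 13.1, 24.4, 10.7 and 11.4 in LIPUS libraries, 9.34, 18.8, 7.53, 3.72 and 6.98 in Model libraries and 4.99, 6.28, 5.34, 4.90 and 6.78 in Control libraries. All 5 LIPUS values exceeded the highest Control value, as was true of 11.7% of genes tested, and Model_7 stood within the LIPUS range. The log2 change in LIPUS against Control was 1.38 ± 0.34 (SE; 2.60-fold, adjusted p = 0.00809), called whichever library was left out. As deposited, however, Ptgr1 had 10.8 ± 5.57 FPKM in LIPUS and 9.77 ± 1.46 FPKM in Control libraries (SD, n = 5 each), with a log2 change of -0.04 (adjusted p = 0.939).

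In LIPUS against Model the change of Ptgr1 was 0.86 ± 0.34 (unadjusted p = 0.0231, adjusted p = 0.13), and it was called with array weights (1.04, adjusted p = 0.0308) and without Model_7 (1.16, adjusted p = 0.00612), while the number of genes called in that comparison was then 3947 in place of 516. In Model against Control it was 0.52 ± 0.34 (adjusted p = 0.253), -0.25 as deposited, and 1.22 with the lobe ratio as a covariate (adjusted p = 0.0102).

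Ratios of 2 enzymes within a library, taken as log2 of deposited FPKM with nothing added (a choice made after the values were seen), do not depend on scaling and were described with no test. Ptgs1 to Hpgd, the cyclooxygenase against the first step of breakdown, was -8.06 to -1.06 in LIPUS, -5.04 to 1.02 in Model and -6.84 to -2.79 in Control libraries, with Model_7 as the single library in which Ptgs1 was the higher of both per length. Ptgr1 to Hpgd was -3.44 to 1.98 in LIPUS, -3.04 to 5.76 in Model and -4.66 to -0.13 in Control libraries. Ptges to Ptges3 was -11.02 to -4.72 in the 4 LIPUS libraries with reads of Ptges, -9.19 to -4.33 in Model and -7.20 to -4.99 in Control libraries, so the groups overlapped in each of these ratios. Per length, the order of mean scaled FPKM was Ptges3, Hpgd, Ptgr1, Ptges2, Pla2g4a, Ptgs1, Ptges, Ptgds and Ptgs2 in LIPUS libraries, and in Model libraries Ptges3, Hpgd, Ptgr1, Ptges2, Ptges, Ptgs1, Pla2g4a, Ptgds and Ptgs2. In Control libraries it ran from Ptges3 over Hpgd, Ptgr1, Pla2g4a, Ptges2, Ptgs1 and Ptges to Ptgs2 and Ptgds. Hpgd and Ptges3 overlapped there (7.44 to 123 and 68.3 to 77.8 scaled FPKM), as did Pla2g4a and Ptges2, Ptgs1 and Ptges, Ptges and Ptgs2, and Ptgs2 and Ptgds. In LIPUS and in Model libraries each enzyme from Ptges2 down overlapped with the next one in the group's own order, and Hpgd overlapped with Ptgr1. Hpgd also overlapped with Ptges3 in LIPUS but not in Model libraries. Ptgr1 and Ptges2 overlapped in Model but not in LIPUS libraries.

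For each tested enzyme, the genes with the most similar profile over the 15 libraries were sought by the root mean square difference of centred log2 values, among 9112 or 9113 genes. The closest were Hprt1 (0.13) and Lamtor2 (0.16) for Ptges3, Eef1a1 (0.33) and Plin2 (0.33) for Ptgr1, Pfn2 and Elac1 (both 0.34) for Ptgs1, Dtx2 (0.34) and Oxld1 (0.40) for Ptges2, and Zyx (0.39) and Slc26a2 (0.41) for Pla2g4a. Differences were larger for Ptges (Foxi1 0.75, Tysnd1 0.88), Hpgd (Enpep 1.02, Fndc5 1.11) and Ptgds (Rasd2 1.14, Tap1 1.15). The median difference over all genes compared was 0.78 for Ptges3 and 2.23 for Hpgd, and library make-up is shared by all these genes.

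A further 6 lists of the pathway held 61 genes, of which 58 were in the table and 34 were tested. In LIPUS against Model 1 was called higher and 1 lower, in Model against Control 4 higher and 3 lower, and in LIPUS against Control 3 higher and 5 lower. Over all genes tested 2.82% were called higher and 1.47% lower in LIPUS against Model, and 13.7% were called lower in LIPUS against Control. The 7 of 34 called in Model against Control stand beside 35.7% of all genes, and the 8 of 34 in LIPUS against Control beside 25.8%.

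**Figure D3:**
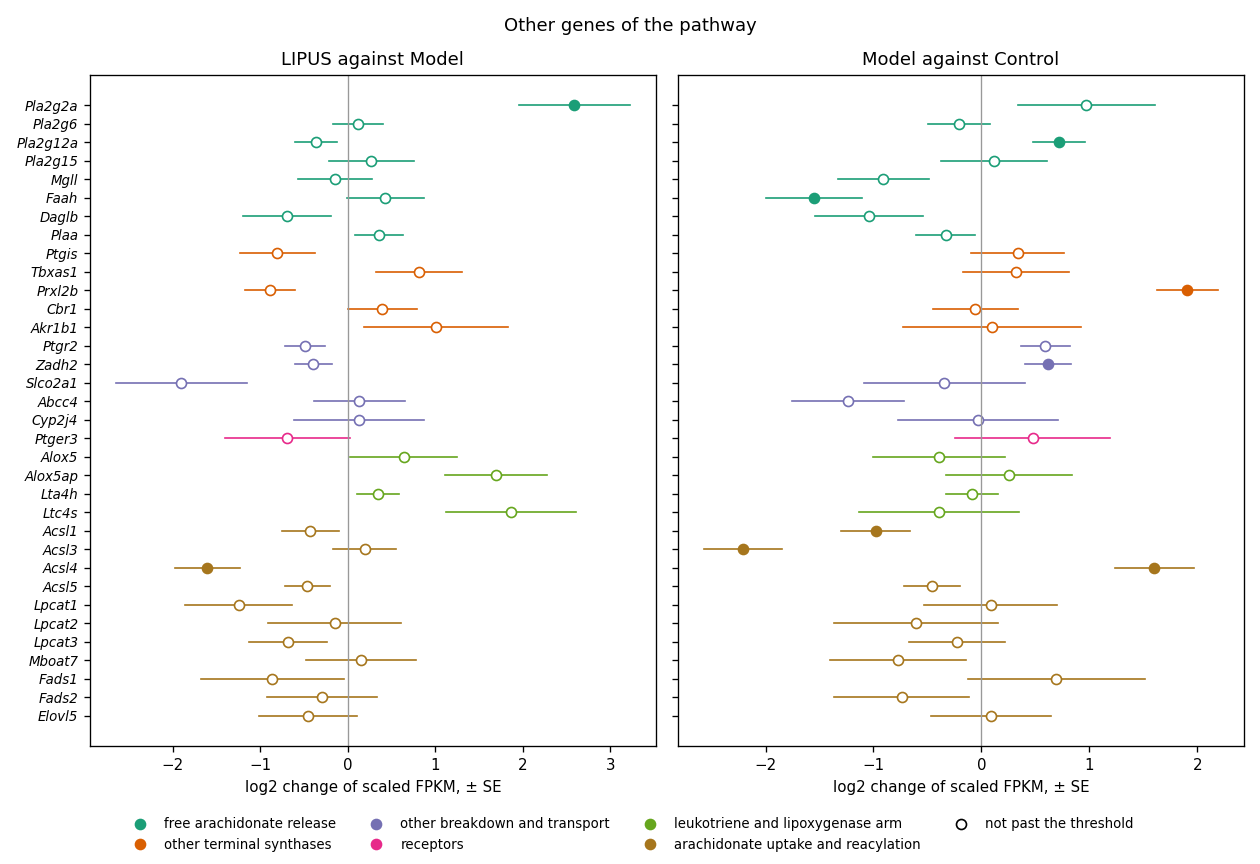
log2 change of scaled FPKM ± SE of the 34 tested genes of 6 pathway lists, coloured by list, in LIPUS against Model (left) and Model against Control (right); filled points passed the limma test at an adjusted p under 0.05. Acsl4 lies at -1.60 on the left and 1.60 on the right, 2 comparisons that share the Model libraries.

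Among 11 genes of arachidonate uptake and reacylation, 0 were higher and 1 was lower in LIPUS against Model, where 1.47% of all genes were called lower. In Model against Control 1 was higher and 2 were lower, and 3 of 11 is below the 35.7% of all genes called. In LIPUS against Control 3 were lower and 0 higher, where 13.7% of all genes were called lower and 25.8% in either direction. Acsl4, an acyl-CoA synthetase that prefers arachidonate and so returns it to lipids, had a scaled FPKM of 24.6, 34.9, 30.6, 29.3 and 8.21 in LIPUS libraries, 54.3, 42.3, 86.0, 125 and 67.1 in Model libraries and 26.4, 26.3, 14.7, 23.2 and 26.6 in Control libraries. Every Model library lay above every library of the other groups. Against Control this was true of 14.7% of genes tested, and against LIPUS the share is not given here. The log2 change was -1.60 ± 0.37 (SE) in LIPUS against Model (limma adjusted p = 0.0294) and 1.60 ± 0.37 in Model against Control (adjusted p = 0.00355). The first was lost without LIPUS_6, Model_8, Model_9 or Model_10 (adjusted p 0.0524 to 0.0847), without a filter (0.0557), with only both groups in the fit (0.158), with the lobe ratio as a covariate (0.071), with the replicate block (0.0681) and by limma-voom (0.053), and the second as deposited, at 0.83 (adjusted p = 0.199). In LIPUS against Control the change was 0.0011 (adjusted p = 0.998).

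Acsl3 and Acsl1, synthetases of broader use, fell in both groups of model rats. Acsl3 averaged 4.29 ± 1.96 scaled FPKM in LIPUS, 3.88 ± 2.24 in Model and 16.7 ± 3.75 in Control libraries (SD, n = 5 each), with every library of both groups below every Control library, as for 1800 of the 12023 genes tested in LIPUS and 17.7% in Model. Its log2 change was -2.21 ± 0.36 in Model against Control (adjusted p = 0.000289) and -2.02 ± 0.36 in LIPUS against Control (adjusted p = 0.00095). Acsl1 changed by -0.98 ± 0.32 in Model against Control (adjusted p = 0.0273) and -1.40 ± 0.32 in LIPUS against Control (adjusted p = 0.00503). The first of these was lost without Model_6, Model_8, Control_6, Control_8, Control_9 or Control_10 (adjusted p 0.0501 to 0.0712) and with the lobe ratio as a covariate (-0.77, adjusted p = 0.157). Acsl5 changed by -0.92 ± 0.26 in LIPUS against Control (adjusted p = 0.0179).

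Among 8 tested genes of arachidonate release outside the 9 enzymes, Pla2g2a, the secreted phospholipase A2 of inflammatory fluids, was called higher in LIPUS than in Model and Control libraries, the first with a call that depended on the libraries and the fit. Pla2g2a had a scaled FPKM of 11.6, 2.62, 8.30, 10.1 and 37.6 in LIPUS libraries, 2.78, 4.71, 1.05, 0.655 and 0.968 in Model libraries and 0.451, 0.952, 1.67, 0.386 and 0.79 in Control libraries. LIPUS libraries lay above every Control library, as was true of 11.7% of genes tested, and LIPUS_7 lay within the Model range. Of all genes tested, 2.82% were called higher in LIPUS against Model and 12.1% in LIPUS against Control. The log2 change was 2.59 ± 0.64 (SE) in LIPUS against Model (limma adjusted p = 0.0365) and 3.56 ± 0.64 in LIPUS against Control (adjusted p = 0.000939), and as deposited 1.94 and 2.21, both called. The first held without LIPUS_7, LIPUS_9, Model_6, Model_7 or Control_8 and was lost without any 1 of the other 10 libraries (adjusted p up to 0.104). It was also lost without a filter (0.0699), with only both groups in the fit (0.165), with the lobe ratio as a covariate (0.0965), with the replicate block (0.0792) and by limma-voom (0.147).

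The other called genes of release were Faah, which hydrolyses anandamide to arachidonate, at -1.55 ± 0.44 in Model against Control (adjusted p = 0.0131), Pla2g12a, a secreted phospholipase A2, at 0.72 ± 0.24 there (adjusted p = 0.031), and Daglb, which makes the arachidonate source 2-arachidonoylglycerol, at -1.73 ± 0.50 in LIPUS against Control (adjusted p = 0.0195). Faah lost its call with quantile normalization (-1.09, adjusted p = 0.0636). Pla2g12a turned to -0.06 as deposited (adjusted p = 0.89) and lost its call without Model_6, Model_8, Model_9, Model_10, Control_6, Control_7, Control_8 or Control_9 (adjusted p 0.0537 to 0.0836). It was also lost with scaling to nuclear reads (0.51, adjusted p = 0.0663), quantile normalization (0.53, adjusted p = 0.0862) and the lobe ratio as a covariate (0.21, adjusted p = 0.512). Daglb lost its call without Control_6 (adjusted p = 0.0559), with a pseudocount of 0.01 (0.0577) and by limma-voom (0.0519).

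Of 5 other terminal synthases tested, Prxl2b, a prostaglandin F synthase, rose in both groups of model rats on the scaled values. It averaged 5.37 ± 1.68 scaled FPKM in LIPUS, 10.3 ± 3.92 in Model and 2.50 ± 0.32 in Control libraries (SD, n = 5 each). Prxl2b changed by 1.91 ± 0.29 (SE, log2) in Model against Control (adjusted p = 0.000144; 1.15 and 0.0329 as deposited) and 1.02 ± 0.29 in LIPUS against Control (adjusted p = 0.0163), which turned to -0.36 as deposited (adjusted p = 0.426) and was not called by limma-voom (adjusted p = 0.0596). Akr1b1, an aldo-keto reductase with prostaglandin F synthase activity, was the most abundant of this list at 120 ± 82.4 in LIPUS, 74.0 ± 47.6 in Model and 56.7 ± 31.4 in Control libraries, and its change in LIPUS against Model, 1.01 ± 0.83, was not called (adjusted p = 0.446).

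Of 5 other breakdown and transport genes tested, Zadh2, a prostaglandin reductase, was at 0.62 ± 0.21 in Model against Control (adjusted p = 0.0332), and turned to -0.13 as deposited (adjusted p = 0.738). Its call was lost without Model_8, Model_9, Model_10, Control_6, Control_7 or Control_10 (adjusted p 0.0524 to 0.0862), with scaling to nuclear reads (0.42, adjusted p = 0.171) and with the lobe ratio as a covariate (0.40, adjusted p = 0.25). Slco2a1, the transporter that takes prostaglandins into cells for breakdown and is known from endothelium, was at -2.25 ± 0.75 in LIPUS against Control (adjusted p = 0.0385). That call held without LIPUS_7, LIPUS_9 or any 1 Model library and was lost without LIPUS_6, LIPUS_8, LIPUS_10 or any 1 Control library (adjusted p 0.0553 to 0.0897), with a pseudocount of 0.01 (0.063), without a filter (0.0652), with the replicate block (0.0723) and by limma-voom (0.159). Ptgr2, another prostaglandin reductase, was at -0.49 ± 0.22 in LIPUS against Model (adjusted p = 0.186).

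Of 9 prostanoid receptors only Ptger3, a receptor of prostaglandin E2, was abundant enough to be tested, at 0.633 ± 0.266 scaled FPKM in LIPUS, 1.59 ± 0.963 in Model and 0.751 ± 0.303 in Control libraries (SD, n = 5 each). Its log2 change was -0.69 ± 0.71 in LIPUS against Model, 0.47 ± 0.71 in Model against Control and -0.22 ± 0.71 in LIPUS against Control (adjusted p = 0.553, 0.639 and 0.854). Without Model_7 it was -1.56 in LIPUS against Model (adjusted p = 0.00441) and 1.35 in Model against Control (adjusted p = 0.00553), while with the lobe ratio as a covariate the second was -1.49 (adjusted p = 0.0185).

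In the leukotriene and lipoxygenase arm 4 of 11 genes were tested. Alox5ap, which presents arachidonate to 5-lipoxygenase, averaged 5.80 ± 1.63 scaled FPKM in LIPUS, 2.57 ± 2.01 in Model and 1.40 ± 0.23 in Control libraries (SD, n = 5 each). Its log2 change was 1.95 ± 0.58 (SE) in LIPUS against Control (limma adjusted p = 0.0235), and 0.57 as deposited (adjusted p = 0.36). The call was lost without Control_7 or Control_10 (adjusted p = 0.0516 and 0.0546). Lta4h, which makes leukotriene B4, was at 0.35 ± 0.24 in LIPUS against Model (adjusted p = 0.364), and at -0.30 as deposited.

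Leukocyte markers stood beside these values. The summed scaled FPKM of 6 macrophage markers was 24.4 to 85.5 in LIPUS, 12.8 to 22.7 in Model and 25.1 to 30.6 in Control libraries, with 3 of 6 (Cd68, Csf1r and Mrc1) higher in LIPUS than in Model, where 2.82% of all genes tested were called higher. That of 6 mast cell markers was 3.84 to 22.4 in LIPUS, 0.969 to 2.14 in Model and 6.59 to 9.47 in Control libraries, with 1 of 5 tested (Cpa3) higher in LIPUS than in Model, beside the same 2.82%. In LIPUS against Control, where Alox5ap was called, 2 of 6 macrophage markers (Cd68 and Adgre1) were higher and 0 lower, beside 12.1% of all genes called higher. Of the 5 mast cell markers tested, 0 were higher and 1 was lower there, beside 13.7% of all genes called lower. The part of these cells in the values of Pla2g2a, Alox5ap and the other genes was not tested.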

How the data were processed

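Prostate RNA-seq of 15 libraries, 5 each of LIPUS, Model and Control, was used. Per the labels' protocols, TRIzol served for total RNA and a VAHTS Universal V5 kit for the libraries. The authors deposited 1 FPKM value per gene and library. The submitters' processing notes name fastp, HISAT2, SAMtools, HTSeq, DESeq2, R 3.2.0 and the build rn6, with no role or order, and strand is not stated.

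Whole reads were recovered from the FPKM by finding library sizes and gene lengths at which all values are whole within 0.001, which held for 22436 of 22436 genes (1802 of them above 0 in 1 library only, where this is no check). On simulated data 99.5% of 5931 genes came back. They served for depth, detection limits and limma-voom.

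FPKM were divided by median-of-ratios factors from 10313 genes detected in every library. Genes above 0.5 in at least 5 libraries (12023) were fitted as log2(scaled FPKM + 0.1) with limma 3.58.1 in R 4.3.3: all 15 libraries, 1 mean per group, intensity trend, and Benjamini-Hochberg adjusted p under 0.05 over all genes tested. The common spread assumes that groups vary alike, although the median SD over genes was 0.59 in LIPUS, 0.59 in Model and 0.19 in Control libraries. Read-count intervals are exact (Poisson or Clopper-Pearson) and cover counting error only. No libraries were copies (lowest chi-square per degree of freedom within a group 75.1). Same-numbered libraries did not deviate together (correlations -0.42 to 0.26), so numbers were not used as pairs.

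The 9 enzymes and all gene lists were chosen with earlier results of these data known. Text names all 9 enzymes, of each pathway list up to 3 called genes with the smallest p per comparison (otherwise the most abundant), the 2 most similar genes of each tested enzyme among those averaging at least 1 scaled FPKM, and marker genes beside results. Gene symbols are those of the deposited table. Promoters come from RefSeq on GRCr8, matched by gene number. Alternatives covered scaling, pseudocount, filter, libraries fitted, lobe covariate, replicate block, weights, voom and each library left out.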

Additional observations from a re-analysis of the deposited data

Results flagged for a closer look

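In 4 of 27 groups of 5 libraries (9 enzymes in 3 groups), 1 library stood apart from the other 4 by Dixon's criterion, a gap of more than 0.71 of the group's range. Chance alone flags about 1 group in 20 only where values are normally distributed, which was not tested for scaled FPKM. The number of flags therefore cannot be set against that rate. For Ptgs2 in LIPUS and in Model, 4 libraries held no reads, so any read in the remaining library was flagged whatever its level.

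Ptgs2 reached 0.403 scaled FPKM in LIPUS_9 and was 0 in the other LIPUS libraries. In Model_6 it reached 0.0159 scaled FPKM, a single read, and was 0 in the other Model libraries. Hpgd reached 264 scaled FPKM in LIPUS_8, where the other LIPUS libraries held 4.53 to 35.6. Pla2g4a reached 6.69 scaled FPKM in LIPUS_10, where the other LIPUS libraries held 0.855 to 2.01. LIPUS_10 had 83.3% mitochondrial reads and the smallest scaling factor, 0.309, and as deposited its Pla2g4a value of 2.07 FPKM lay within the range of the other LIPUS libraries, 0.548 to 2.26 FPKM.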

How the results depend on the processing

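Of 1450 recomputed log2 changes of the enzymes and named pathway genes, 1288 kept their direction and their side of the threshold, 102 lost and 20 gained a call, and 40 changed sign; causes were not tested. The number of genes called in LIPUS against Model, 516, was 1820 as deposited, 319 with scaling to nuclear reads, 272 without a filter, 11 with only both groups in the fit, 133 with the replicate block, 2628 with array weights, 80 by limma-voom, 4310 without Model_7 and LIPUS_10, and 115 to 3947 with 1 library left out (highest without Model_7). In Model against Control the 4292 became 7457 with array weights and 6439 without Model_7 and LIPUS_10 (3369 to 5751 with 1 left out). In LIPUS against Control the 3107 became 9415 as deposited (2146 to 4144). As deposited, called genes were nearly all lower: 163 higher and 1657 lower in LIPUS against Model, 368 and 5382 in Model against Control, 119 and 9296 in LIPUS against Control. The block changed no call of the 8 tested enzymes; it ended those of Pla2g2a and Acsl4 in LIPUS against Model, of Slco2a1 and of Ptgs2 (adjusted p = 0.0546 by limma) in LIPUS against Control.

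Enzymes called in LIPUS against Model, 0, were 1 as deposited (Ptges3, lower), 1 with array weights, 2 without Model_7 and LIPUS_10, and 0 to 1 with 1 library left out. In Model against Control the 2 were 1 as deposited, 0 with quantile normalization, 1 with a pseudocount of 0.01, 4 with array weights and 1 to 2 with 1 left out. In LIPUS against Control the 2 were 4 as deposited (all lower), 1 with scaling to nuclear reads, 1 with quantile normalization and 2 to 3 with 1 left out.

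Signs turned in LIPUS against Model for Ptgs1 with the lobe covariate (0.22; -0.47 to 0.18 with 1 library left out), Hpgd without Model_7 and LIPUS_10 (-0.0087; -0.47 to 1.39), Pla2g4a as deposited (-0.0738) and without both (-0.18), Akr1b1 without both (-0.0106), Ptger3 with the lobe covariate (0.57) and by voom (0.49), Lta4h as deposited (-0.30), and unfiltered Ptgs2 with 1 left out (-0.0426 to 0.54). They turned in Model against Control as deposited for Ptgs1 (-0.31), Ptges (-0.19), Ptgr1 (-0.25), Pla2g12a (-0.0596), Zadh2 (-0.13) and Ptger3 (-0.27), with the lobe covariate for Ptgs1 (-0.19), Ptges (-1.02), Ptges2 (-0.19), Ptgds (-0.0742), Ptger3 (-1.49) and Lta4h (0.11; -0.21 to 0.0252 with 1 left out), with a pseudocount of 0.01 for Ptgds (-0.0561) and Ptger3 (-0.0595), and by voom for Ptger3 (-0.77). They turned in LIPUS against Control as deposited for Ptgs1 (-1.10), Ptges3 (-0.71), Ptgr1 (-0.039) and Prxl2b (-0.36), with array weights for Ptgs1 (-0.0175) and Ptgds (0.15), by voom for Ptgs1 (-0.13), with a pseudocount of 1 for Ptgds (0.0803), with quantile normalization for Ptger3 (0.0335), without both libraries for Ptges2 (0.10; -1.36 to 0.10 with 1 left out) and with 1 left out for Ptges (-1.34 to 0.0155). Ptgds passed the filter in 10 of the 15 fits with 1 library left out.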
